A study of Mus musculus with 40 samples.

Results

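Gene expression in mammary glands on day 13 of pregnancy (p13) was compared between mice with deletion of Ezh2 and 1 inactive Ezh1 allele, called E1+/-E2KO here, and control mice. All genes with at least 1 FPKM in either group were compared, which left 13622 of the 22552 genes in the deposited table. FPKM are fragments scaled to transcript length and to the number of mapped fragments, so levels can be set side by side between genes. At the edge of that filter, Pglyrp2 entered with 1.00 FPKM in E1+/-E2KO and 0.144 in control, and Espn stayed out with 0.890 and 0.999 FPKM in the same order of groups.

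The series holds 31 RNA libraries in 12 groups and 9 chromatin libraries, and the chromatin libraries were not analysed here. Each p13 group was sequenced as 3 libraries of poly(A) RNA from whole mammary tissue, and the table gives 1 pooled value per gene and group. No value therefore has an SD, an n or a p-value, and no difference below has a replicate check. The files give no counts, so the depth behind a value is unknown.

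The E1+/-E2KO mice are labelled E1+/-;E2f/f;control, which means 1 knocked-out Ezh1 allele, both Ezh2 alleles floxed, and a last word that is read here as the transgenic line mated in to delete Ezh2 in the mammary gland. The labels do not spell out that this line is the MMTV-Cre of the control mice, so the deletion is taken from the group's name. Other mice at p13 were E2KO (Ezh2f/f;control) and E1KO (E1-/-), and the control mice are labelled MMTV-Cre. All were outbred and untreated, and the sources used here give no age for the pregnant mice. The MMTV promoter that drives Cre is active in mammary epithelium, and it is also known for activity in other epithelia and in lymphoid cells. Stroma, fat, vessels and muscle in the same tissue are not the target of the deletion, whereas the Ezh1 allele is described with no restriction to a tissue. The E1KO label names no Cre, so as labelled that group differs from control in the transgene as well. At day 18 (p18), E1+/-E2KO and control glands were again sequenced as 3 libraries each.

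The enzymes EZH1 and EZH2 can each serve as the methyltransferase of Polycomb repressive complex 2 (PRC2), which modifies lysine 27 of histone H3 together with the core subunits EED and SUZ12. Genes carrying that mark, among them Hox genes and other developmental regulators, are kept silent in cells that do not use them. In the mammary gland, prolactin acts through its receptor, JAK2 and STAT5 during pregnancy to build alveoli and to turn on milk protein genes.

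At p13, 446 of 13622 genes (3.27%) were at least 1 higher in E1+/-E2KO on the log2(FPKM + 1) scale, 456 (3.35%) were at least 1 lower, and 12720 lay between. On that scale a difference of 1 is close to 2-fold for abundant genes and understates the fold of genes near 1 FPKM. The median difference was -0.01, and 90% of genes lay between -0.80 and 0.76. Calls here and below mean past this size, as a description of pooled values and not as a test. Each list count below stands beside these shares of all genes. A list with few calls is not read as different from them. The 12925 kept protein-coding genes held 291 of the higher and 411 of the lower ones. The 246 kept small RNAs held 120 of the higher and 35 of the lower ones. Both shares are therefore larger over all genes than over protein-coding genes alone. Of the 53 gene lists used below, with 896 genes kept, 132 higher and 59 lower genes were members.

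**Figure D1:**
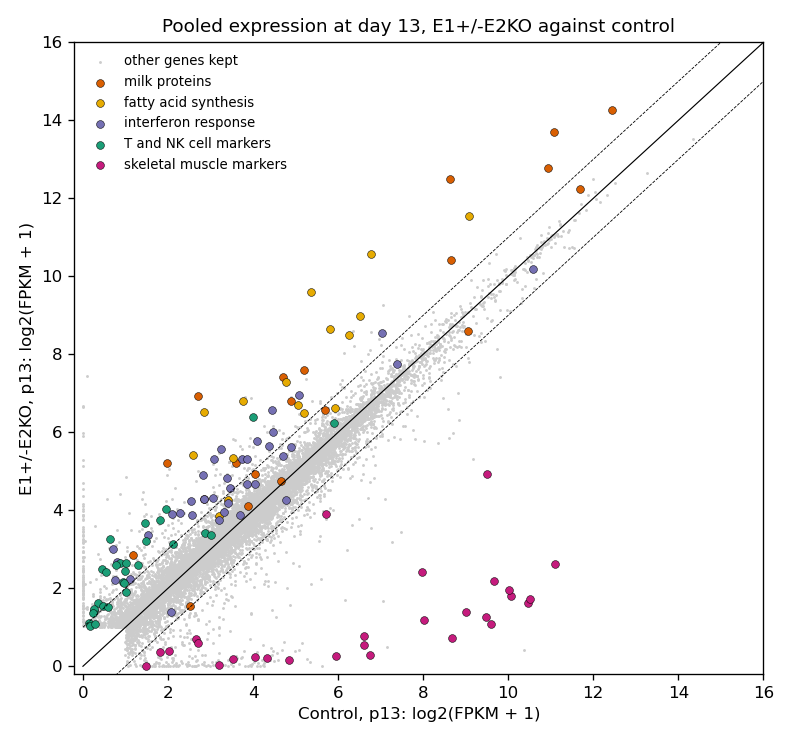
Pooled log2(FPKM + 1) of each kept gene at p13, with E1+/-E2KO on the vertical and control on the horizontal axis; the solid line marks equal values, the dashed lines a difference of 1 in either direction, and colours mark 5 gene lists. Of the kept genes, 13 of 20 for milk proteins and 13 of 16 for fatty acid synthesis lie above the upper dashed line at high levels, 21 of 29 T and NK cell markers above it at low levels, and all 28 kept muscle markers lie below the lower one.

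The deleted genes were examined first. Ezh1 had 6.17 FPKM in E1+/-E2KO, 9.50 in E2KO, 1.06 in E1KO and 14.7 in control, a difference of -1.13, or 0.419 times the control level. Its level was thus between those of E2KO and E1KO glands. Ezh2 had 9.54 FPKM in E1+/-E2KO, 13.7 in E2KO, 13.8 in E1KO and 12.9 in control, which is 0.737 times control in E1+/-E2KO. FPKM are computed over a whole transcript and the tissue holds cells outside the reach of the Cre, so the Ezh2 value does not check the genotype. In E2KO glands, whose label carries the same floxed alleles, Ezh2 stood slightly above control.

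Apart from Ezh1, none of the 13 kept genes among PRC2 subunits, accessory subunits and H3K27 demethylases was past the threshold, against 3.27% and 3.35% of all genes. The core subunits Suz12 and Eed differed from control by 0.08 and -0.01. Jarid2, an accessory subunit that helps to recruit the complex, had 15.1 FPKM in E1+/-E2KO, 19.1 in E2KO, 15.3 in E1KO and 10.9 in control. The 18 PRC1 genes, whose products bind or extend the Polycomb mark, held no call in either direction (median 0.08).

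Gene families known as Polycomb targets had many members under 1 FPKM in both groups, and their calls were too few to set against the 3.27% higher and 3.35% lower of all genes. Of 39 listed Hox genes 23 were kept, and their differences ran from -0.48 to 0.55 with no call. Among 66 other developmental transcription factors 22 were kept, with 1 higher and 0 lower. Cdkn2a, which encodes the cell cycle inhibitors p16INK4a and p19ARF and is a classical Polycomb target, had 5.07 FPKM in E1+/-E2KO, 0.920 in E2KO, 1.02 in E1KO and 0.606 in control. Of 7 kept CDK inhibitor genes it alone was past the threshold, with a difference of 1.92, and at p18 it had 1.90 FPKM in E1+/-E2KO and 0.243 in control. Its neighbour Cdkn2b, which encodes another inhibitor of CDK4 and CDK6, differed by 0.27.

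Milk protein genes were higher in E1+/-E2KO. Of 22 genes in the list 20 were kept, 13 were higher and 0 lower, with a median difference of 1.71 (1.64 over all 22) against -0.01 over all genes. Milk protein genes made up 8.08% of all summed FPKM in E1+/-E2KO, against 15.7% in E2KO, 3.75% in E1KO and 2.16% in control.

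The promoters of the most abundant of these genes that hold a STAT consensus before the start site are shown because prolactin acts on milk genes through STAT5. Each is 100 bases of the RefSeq promoter table on GRCm38.p6, with letters matching TTCNNNGAA in capitals; the Csn2 piece lies at chr5:87699449-87699548 on the minus strand, the Csn1s1 piece at chr5:87666078-87666177 on the plus strand and the Glycam1 piece at chr15:103565157-103565256 on the minus strand, each read 5′ to 3′ along the gene.
Csn2: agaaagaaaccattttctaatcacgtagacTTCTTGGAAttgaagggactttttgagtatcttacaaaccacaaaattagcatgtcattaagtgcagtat
Csn1s1: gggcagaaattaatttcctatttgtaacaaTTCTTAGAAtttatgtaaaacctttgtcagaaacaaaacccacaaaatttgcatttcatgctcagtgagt
Glycam1: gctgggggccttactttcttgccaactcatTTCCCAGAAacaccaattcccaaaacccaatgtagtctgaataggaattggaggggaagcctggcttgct

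The same letters read alike on both strands. They occurred in 6 of 18 promoters of the list (33.3%) and in 8.30% of 32851 promoters of the table, each from 250 bases before to 50 after the start. RefSeq promoters were found for 17 of the 22 genes. Matching letters are a description and not evidence of a bound factor. None of 18 promoters of fatty acid synthesis genes held the letters in that window. In the interferon lists described below, 6 of 31 promoters of interferon response genes held them (19.4%). In the list of interferon-gamma induced GTPases 6 of 11 did (54.5%), so the letters are not particular to milk protein genes.

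Csn2 encodes beta-casein, the most abundant of these transcripts. It had 19742 FPKM in E1+/-E2KO, 42713 in E2KO, 8447 in E1KO and 5569.7 in control. Csn1s2a, another casein, had 13312 FPKM in E1+/-E2KO, 32011 in E2KO, 4659 in E1KO and 2153 in control, and Csn1s1, for alpha-S1-casein, had 6978 FPKM in E1+/-E2KO, 14527 in E2KO, 3806 in E1KO and 1946 in control. For all 3 caseins the order was E2KO, E1+/-E2KO, E1KO and control, from high to low.

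The largest folds of the list were those of Lalba, Glycam1, Pigr and Wap. Lalba, for alpha-lactalbumin, the regulatory subunit of lactose synthase, had 121 FPKM in E1+/-E2KO, 99.4 in E2KO, 10.1 in E1KO and 5.53 in control, which is 21.8-fold control. Glycam1, a mucin-like milk protein, had 5755 FPKM in E1+/-E2KO, 12834 in E2KO, 1151 in E1KO and 396 in control. Wap, for whey acidic protein, had 169 FPKM in E1+/-E2KO, 291 in E2KO, 30.3 in E1KO and 24.99 in control. In these 3, E1+/-E2KO and E2KO lay well above E1KO and control.

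Pigr, which transports IgA across the epithelium, had 35.9 FPKM in E1+/-E2KO, 55.3 in E2KO, 8.87 in E1KO and 2.91 in control, a 12.3-fold difference from control. Lao1, an L-amino acid oxidase found in mouse milk, had 21.3 FPKM in E1+/-E2KO, 52.0 in E2KO, 1.87 in E1KO and 1.68 in control. Chrdl2, a secreted protein that binds BMPs, had 18.5 FPKM in E1+/-E2KO, 22.3 in E2KO, 3.84 in E1KO and 1.62 in control. Both Lao1 and Chrdl2 shared the casein order of genotypes. Among the other milk proteins, Spp1 (osteopontin) differed by 2.40, Csn3 (kappa-casein) by 1.75 and Ltf (lactoferrin) by 0.89. Mfge8, a coat protein of milk fat globules, and Saa3, an acute phase protein, lay below control, at -0.47 and -0.97.

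Over the 20 kept milk protein genes, 17 had their highest p13 value in E2KO, 2 in E1+/-E2KO, 0 in E1KO and 1 in control. The 3 comparisons with control share the same control values. Whether fewer cells of a type or less RNA per cell lies behind a level cannot be told apart in RNA from a whole gland, here and for every cell type below.

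Enzymes that make fatty acids from citrate and acetate were higher too, with a larger median. All 16 genes of the list were kept, 13 were higher and 0 lower, and the median difference was 2.48. Fasn, fatty acid synthase, had 772 FPKM in E1+/-E2KO, 299 in E2KO, 435 in E1KO and 39.9 in control, a 19.4-fold difference from control. Thrsp (Spot 14), an activator of lipogenesis in mammary gland and liver, had 1515 FPKM in E1+/-E2KO, 695 in E2KO, 788 in E1KO and 108 in control. Elovl6, which elongates palmitate, had 90.5 FPKM in E1+/-E2KO, 27.3 in E2KO, 57.8 in E1KO and 6.15 in control. In all 3, E1+/-E2KO was highest, E1KO next, then E2KO, and control was far below.

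The enzymes upstream in the pathway showed the same order. Acly, which splits citrate to acetyl-CoA, had 397 FPKM in E1+/-E2KO, 171 in E2KO, 222 in E1KO and 55.0 in control. Acaca, the first committed step, had 157 FPKM in E1+/-E2KO, 77.5 in E2KO, 93.6 in E1KO and 26.5 in control, and Acss2, which activates acetate, had 110.2 FPKM in E1+/-E2KO, 28.4 in E2KO, 64.0 in E1KO and 12.7 in control. The citrate carrier Slc25a1 differed by 2.25, and malic enzyme Me1, a source of NADPH, by 2.48. Scd1, the desaturase that makes oleate, had 2983 FPKM in E1+/-E2KO, 852 in E2KO, 2007 in E1KO and 536 in control.

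Their transcriptional regulators were nearer to control. Srebf1, which encodes SREBP-1, had 97.3 FPKM in E1+/-E2KO, 93.6 in E2KO, 72.7 in E1KO and 59.6 in control, and Mlxipl, for the glucose sensor ChREBP, had 18.3 FPKM in E1+/-E2KO, 6.12 in E2KO, 14.3 in E1KO and 9.69 in control, differences of 0.70 and 0.85. Olah, the thioesterase that ends fatty acid chains early in mammary epithelium, had the order of the caseins, with 39.2 FPKM in E1+/-E2KO, 78.4 in E2KO, 21.4 in E1KO and 10.5 in control. Slc2a5, a fructose transporter, had 8.20 FPKM in E1+/-E2KO, 2.20 in E2KO, 5.27 in E1KO and 0.0396 in control. Of the 16 genes, 15 had their highest p13 value in E1+/-E2KO and 1, Olah, in E2KO.

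Genes for uptake of fatty acids and assembly of triglyceride were split. All 18 were kept, 5 were higher, 0 lower, and the median difference was 0.00. The higher ones were Fabp3, Agpat2, Gpd1, Dgat2 and Mogat2. Fabp3, the fatty acid binding protein of mammary epithelium and muscle, had 384 FPKM in E1+/-E2KO, 719 in E2KO, 59.9 in E1KO and 80.3 in control. Agpat2, an acyltransferase abundant in fat, had 262 FPKM in E1+/-E2KO, 97.0 in E2KO, 166 in E1KO and 69.5 in control. Lpl, which releases fatty acids from lipoproteins, had 1056 FPKM in E1+/-E2KO, 478 in E2KO, 868 in E1KO and 984 in control, and the fatty acid receptor Cd36 had 702 FPKM in E1+/-E2KO, 533 in E2KO, 571 in E1KO and 1281 in control. Fabp3 was highest in E2KO, Agpat2 in E1+/-E2KO, and Cd36 in control.

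Sterol synthesis differed little. Of 21 kept genes 3 were higher (Pmvk, Tm7sf2 and Nsdhl) and 0 lower, with a median of 0.20. Pmvk and Nsdhl, enzymes of the mevalonate and later sterol steps, differed by 1.24 and 1.00.

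Fat cells also make fatty acids, so their markers were set beside these values. Of 22 kept adipocyte markers 0 were higher and 4 lower, with a median of -0.63. They made up 4.66% of summed FPKM in E1+/-E2KO, 2.35% in E2KO, 4.28% in E1KO and 6.69% in control. Adipoq, the hormone adiponectin, had 1707 FPKM in E1+/-E2KO, 739 in E2KO, 1491 in E1KO and 2779.7 in control, and Fabp4, the fatty acid binding protein of adipocytes, had 11856 FPKM in E1+/-E2KO, 7601 in E2KO, 11774 in E1KO and 20826 in control. The lower genes were Mest (-2.75), Lep (-1.82), Nnat (-1.61) and Plin4 (-1.57), of which Lep encodes leptin and Plin4 a lipid droplet protein. Retn (resistin), Rbp4 and Adrb3 went the other way without reaching the threshold, at 0.81, 0.83 and 0.82. Which cells made the fatty acid synthesis transcripts was not tested.

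**Figure D2:**
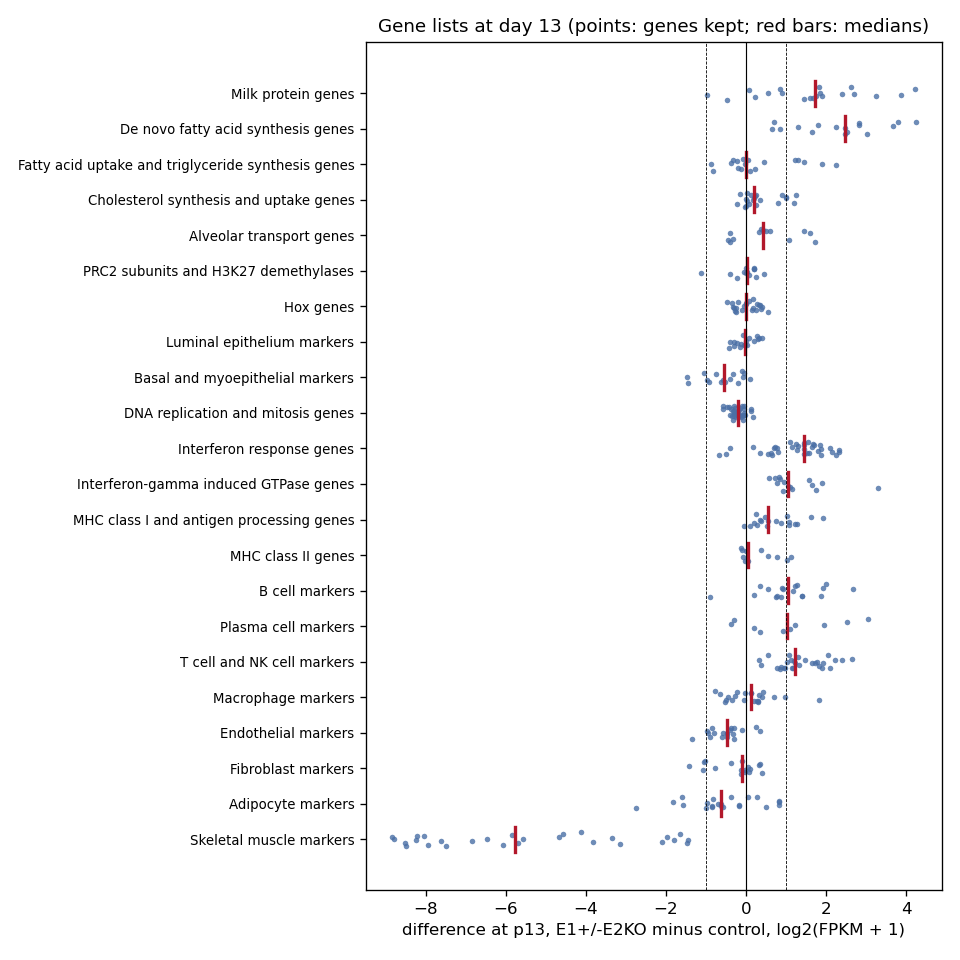
Difference of each kept gene of 22 lists at p13, E1+/-E2KO minus control on log2(FPKM + 1), with a point per gene and the list median as a red bar; dashed lines mark 1 and -1. Medians run from 2.48 for fatty acid synthesis to -5.77 for muscle markers, and the luminal markers all lie between -0.42 and 0.41.

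Markers of luminal epithelium, the cells that make milk, were near control in E1+/-E2KO. All 18 were kept, none was past the threshold in either direction, and the median was -0.03, a value that lies above 0 under 3 of 4 rescalings. Krt8 and Krt18, the simple keratins, differed by -0.23 and -0.12. Epcam, an epithelial adhesion molecule, had 188 FPKM in E1+/-E2KO, 319.6 in E2KO, 221 in E1KO and 193 in control, and Cdh1, for E-cadherin, had 86.2 FPKM in E1+/-E2KO, 145 in E2KO, 95.8 in E1KO and 87.5 in control. E2KO glands were highest for 15 of the 18, and in Epcam and Cdh1 E1+/-E2KO was the lowest of the 4 groups.

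Signalling components of the prolactin pathway were also close to control. The 15 genes held no call (median 0.01). Prlr, the prolactin receptor, had 8.03 FPKM in E1+/-E2KO, 8.71 in E2KO, 5.77 in E1KO and 5.78 in control. Stat5a, the main mammary STAT5, had 43.6 FPKM in E1+/-E2KO, 57.5 in E2KO, 39.3 in E1KO and 32.1 in control, and Cish, a feedback inhibitor that STAT5 induces, had 40.2 FPKM in E1+/-E2KO, 43.9 in E2KO, 29.3 in E1KO and 32.4 in control. Cish was highest in E2KO and lowest in E1KO. Socs1, an inhibitor of JAK kinases that interferons also induce, differed by 0.82. Among 15 luminal and alveolar transcription factors there was no call either. Elf5, the regulator of alveolar cells, had 248 FPKM in E1+/-E2KO, 402 in E2KO, 158 in E1KO and 131 in control, a difference of 0.91, and Spdef, of secretory epithelium, differed by 0.92. Gata3, which maintains luminal cells, had 30.7 FPKM in E1+/-E2KO, 50.1 in E2KO, 37.5 in E1KO and 28.9 in control. Gjb2, a connexin of alveolar cells, had 110.3 FPKM in E1+/-E2KO, 195 in E2KO, 68.3 in E1KO and 40.9 in control.

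Alveolar transporters held 4 higher and 0 lower genes of 13 kept. These were Slc34a2, a phosphate carrier, with 7.24 FPKM in E1+/-E2KO, 8.42 in E2KO, 1.85 in E1KO and 1.51 in control, and Folr1, Atp2c2 and Aqp5. Folr1, a folate receptor, differed by 1.60, Atp2c2, a calcium pump of the secretory pathway, by 1.45, and the water channel Aqp5 by 1.06. The sodium-chloride carrier Slc12a2 differed by 0.33.

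Basal and myoepithelial markers were lower. All 16 were kept, 15 of them lay below control, 3 were past the threshold, and the median was -0.55. Krt17, Krt14 and Krt15, keratins of basal cells, differed by -1.48, -1.44 and -1.05. Krt14 had 27.6 FPKM in E1+/-E2KO, 63.9 in E2KO, 62.2 in E1KO and 76.5 in control, and Krt5, its partner, had 40.5 FPKM in E1+/-E2KO, 83.1 in E2KO, 61.4 in E1KO and 78.2 in control. Trp63, the transcription factor that defines basal cells, had 9.65 FPKM in E1+/-E2KO, 19.3 in E2KO, 12.4 in E1KO and 14.7 in control, and Acta2, the smooth muscle actin of myoepithelium and vessels, had 458 FPKM in E1+/-E2KO, 923 in E2KO, 656 in E1KO and 774 in control. The contractile genes Myl9, Cnn1 and Myh11 were near control, at 0.11, -0.09 and -0.07. For each gene named here except Myl9, E1+/-E2KO was the lowest of the 4 p13 groups.

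Lists of general cell functions lay near control. The 62 kept cytosolic ribosomal protein genes had a median of -0.03, the 45 kept subunits of oxidative phosphorylation 0.18 and the 24 kept genes of the secretory pathway and ER stress -0.09, with no call in any of the 3. Among 15 ubiquitously expressed genes Tfrc, the transferrin receptor, was the 1 past the threshold, at 1.02.

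Glucose uptake and lactose synthesis genes had 2 higher and 0 lower of 14 kept (median 0.06), and Lalba, described above, was 1 of the higher genes. Slc2a1, the main glucose transporter of the gland, had 14.9 FPKM in E1+/-E2KO, 19.9 in E2KO, 11.5 in E1KO and 12.4 in control. Milk fat globule genes had 3 higher and 0 lower of 10 kept. Btn1a1, for butyrophilin, had 110.0 FPKM in E1+/-E2KO, 143 in E2KO, 55.0 in E1KO and 28.6 in control, and Xdh, which binds it, had 93.4 FPKM in E1+/-E2KO, 99.9 in E2KO, 53.1 in E1KO and 51.1 in control. Both had the order of the caseins.

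Proliferation genes showed no call among 36 kept, with 33 below control in the FPKM as deposited and a median of -0.20. Ovarian hormone receptor genes and their targets also held no call among 10 kept. Esr1, for oestrogen receptor alpha, had 9.09 FPKM in E1+/-E2KO, 5.95 in E2KO, 8.96 in E1KO and 18.1 in control, a difference of -0.92. Pgr, the progesterone receptor, differed by -0.28, and Tnfsf11 (RANKL), which progesterone induces, by -0.33.

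Genes induced by interferons were higher in E1+/-E2KO. All 36 in the table were kept, 24 were higher and 0 lower, and the median difference was 1.44. They made up 0.414% of summed FPKM in E1+/-E2KO, 0.282% in E2KO, 0.280% in E1KO and 0.327% in control, a share that Ifi27l2a dominates, with 1162 FPKM in E1+/-E2KO, 747 in E2KO, 897 in E1KO and 1533 in control. The 15 kept genes of interferon-gamma induced GTPases, which act against pathogens inside cells, had 8 higher and 0 lower (median 1.05; 0.95 over all 17 in the table).

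Promoters with the core of the interferon-stimulated response element are shown for 4 genes of these lists. They were taken by largest difference among the genes searched that hold it before the start site. Not every chromosome was searched for these pieces, so a gene with a larger difference can be missing. Capitals mark GAAA, any 2 bases and GAAA again, or the reverse complement with TTTC in place of GAAA, and overlapping matches run together. The Gbp1 piece, which RefSeq names Gbp2b, lies at chr3:142594680-142594779, the Ifit3 piece at chr19:34583343-34583442 and the Ifit1 piece at chr19:34640755-34640854, all on the plus strand, and the Isg15 piece at chr4:156200827-156200926 on the minus strand of GRCm38.p6.
Gbp1: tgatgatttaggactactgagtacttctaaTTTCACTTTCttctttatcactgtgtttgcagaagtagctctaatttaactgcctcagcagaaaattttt
Ifit3: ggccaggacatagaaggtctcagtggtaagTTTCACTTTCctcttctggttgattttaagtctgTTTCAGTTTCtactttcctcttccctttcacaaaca
Ifit1: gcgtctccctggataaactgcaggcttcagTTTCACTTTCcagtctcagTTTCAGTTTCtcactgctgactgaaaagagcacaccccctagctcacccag
Isg15: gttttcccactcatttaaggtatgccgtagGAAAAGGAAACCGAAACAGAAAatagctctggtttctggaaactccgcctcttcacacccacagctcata

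On either strand these letters occurred in 15 of 31 promoters of the interferon list (48.4%), in 10 of 11 of the GTPase list (90.9%) and in 3.44% of all promoters of the table. Promoters were found for 26 of the 36 genes and for 10 of the 17. In the milk protein list 2 of 18 held them, and in the fatty acid synthesis list 0 of 18.

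Isg15, a ubiquitin-like protein, had 123 FPKM in E1+/-E2KO, 95.3 in E2KO, 58.6 in E1KO and 32.9 in control. Ifit1 and Ifit3, which bind viral RNA, had 39.1 and 47.0 FPKM in E1+/-E2KO, 34.3 and 34.4 in E2KO, 14.6 and 17.3 in E1KO, and 7.47 and 8.53 in control. Irf7, the transcription factor that amplifies interferon production, had 94.9 FPKM in E1+/-E2KO, 74.8 in E2KO, 38.9 in E1KO and 20.8 in control. In these 4 genes the groups stood in the order E1+/-E2KO, E2KO, E1KO and control.

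Sensors and effectors of the same response followed. Mx1 and Mx2, GTPases against viruses, differed by 2.31 and 1.88, Oas2, an oligoadenylate synthetase, by 1.85, and Usp18, which removes ISG15, by 2.10. Bst2 (tetherin) had 376 FPKM in E1+/-E2KO, 326 in E2KO, 209 in E1KO and 130.0 in control. Stat2, which carries the signal of type I and III interferons, had 18.8 FPKM in E1+/-E2KO, 13.8 in E2KO, 13.0 in E1KO and 7.31 in control. Genes of the list without a call included Irf9 at 0.70, Ifih1 at 0.64, Xaf1 at 0.18 and Isg20 at -0.50. Of the 36 genes, 26 had their highest p13 value in E1+/-E2KO and 7 in E2KO.

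Gbp1 stood apart from the other GTPases. It had 11.1 FPKM in E1+/-E2KO, 3.20 in E2KO, 0.434 in E1KO and 0.224 in control, and at p18 12.4 FPKM in E1+/-E2KO and 0.536 in control. Iigp1 and Igtp, immunity-related GTPases, had 70.9 and 49.2 FPKM in E1+/-E2KO, 73.5 and 49.8 in E2KO, 31.96 and 23.8 in E1KO, and 18.3 and 13.9 in control. Gbp1 was thus high in E1+/-E2KO at both stages, whereas Iigp1 and Igtp were equally high in E2KO. Ifi202b, a DNA-binding protein of the interferon-inducible p200 family that is no member of these lists, showed a pattern like that of Gbp1 and was chosen after its values were seen. It had 5.97 FPKM in E1+/-E2KO, 1.61 in E2KO, 0.0244 in E1KO and 0.0186 in control, and 3.80 FPKM in E1+/-E2KO and 0.0169 in control at p18. Guanylate binding proteins and p200 genes lie in clusters of near-identical copies, so their single values are uncertain.

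Antigen presentation by MHC class I followed in part. Of 19 kept genes 7 were higher and 0 lower (median 0.56). Tap1, which moves peptides into the endoplasmic reticulum, had 62.7 FPKM in E1+/-E2KO, 56.1 in E2KO, 38.5 in E1KO and 25.2 in control. Psmb9 and Psmb8, subunits of the immunoproteasome, differed by 1.22 and 1.07, and Nlrc5, the activator of class I genes, by 1.06. H2-Q7 and H2-K1 differed by 1.91 and 0.88, values that are uncertain because class I genes have near-identical copies, and B2m, their shared light chain, by 0.20. Class II genes differed less, with 2 higher and 0 lower of 11 kept and a median of 0.06. The abundant H2-Aa, H2-Ab1 and Cd74 differed by -0.10, 0.06 and -0.06, and the 2 higher were H2-Oa and H2-Ob, which B cells express, at 1.03 and 1.12.

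Markers of lymphocytes were higher in E1+/-E2KO at low absolute levels. Of 37 T and NK cell markers 29 were kept, with 21 higher and 0 lower and a median of 1.22 (1.14 over all 37). Of 22 B cell markers 18 were kept, with 9 higher and 0 lower and a median of 1.05 (0.91 over all 22). Of 11 plasma cell markers 10 were kept, with 5 higher and 0 lower and a median of 1.01. Markers under 1 FPKM in control were kept only where they reached 1 FPKM in E1+/-E2KO, so the counts among kept markers are a description.

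Among T cell genes, the subunits of the CD3 complex stood together. Cd3g had 11.7 FPKM in E1+/-E2KO, 3.33 in E2KO, 2.08 in E1KO and 1.73 in control. Cd3e had 5.31 FPKM in E1+/-E2KO, 1.37 in E2KO, 1.05 in E1KO and 1.03 in control, and Cd3d had 5.31 FPKM in E1+/-E2KO, 1.15 in E2KO, 1.06 in E1KO and 0.844 in control. E1+/-E2KO was the only p13 group above 4 FPKM for each of the 3. Cd8b1, of cytotoxic T cells, had 8.60 FPKM in E1+/-E2KO, 1.65 in E2KO, 0.967 in E1KO and 0.543 in control, and Cd4, of helper T cells, had 3.49 FPKM in E1+/-E2KO, 1.69 in E2KO, 1.76 in E1KO and 0.934 in control. Ccl5, a chemokine of activated T and NK cells, had 82.7 FPKM in E1+/-E2KO, 31.0 in E2KO, 22.9 in E1KO and 14.9 in control, and Gzma, a granzyme, had 15.4 FPKM in E1+/-E2KO, 6.58 in E2KO, 4.62 in E1KO and 2.87 in control. For each gene named here, with Nkg7 (1.93) among them, E2KO also stood above control.

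B cell markers were above 1 FPKM mainly in E1+/-E2KO among the 4 p13 groups. Cd79a, of the B cell receptor, had 10.2 FPKM in E1+/-E2KO, 0.804 in E2KO, 0.613 in E1KO and 0.755 in control. Its partner Cd79b had 9.74 FPKM in E1+/-E2KO, 1.65 in E2KO, 2.34 in E1KO and 1.94 in control, and Ms4a1 (CD20) had 3.47 FPKM in E1+/-E2KO, 0.103 in E2KO, 0.153 in E1KO and 0.128 in control. Pax5, the factor that defines the lineage, had 0.888 FPKM in E1+/-E2KO and 0.0243 in control and was not kept. In these genes E2KO and E1KO lay close to control. Ebf1, which B cells share with adipocytes and stroma, went the other way, at -0.91.

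Among plasma cell genes, the higher ones included genes of antibody assembly. Igj, the J chain that joins IgA, had 32.5 FPKM in E1+/-E2KO, 8.26 in E2KO, 5.23 in E1KO and 3.09 in control. The gene that RefSeq names Mzb1, listed as 2010001M09Rik, had 6.31 FPKM in E1+/-E2KO, 0.753 in E2KO, 0.690 in E1KO and 0.277 in control, and it helps immunoglobulin folding. Sdc1, Irf4 and Xbp1, which other cells of the gland also express, differed by -0.36, -0.30 and 0.35.

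Genes of lymphoid tissue were examined beside these values. Of 20 listed 12 were kept, with 4 higher and 0 lower and a median of 0.15. The largest difference, 3.86, was that of Glycam1, which is also on the milk protein list. Cxcl13, the B cell chemokine of follicles, had 15.5 FPKM in E1+/-E2KO, 0.831 in E2KO, 4.60 in E1KO and 3.65 in control, and Ltb, for lymphotoxin beta, had 13.4 FPKM in E1+/-E2KO, 3.08 in E2KO, 2.63 in E1KO and 2.04 in control. Marco, a scavenger receptor of macrophages in the marginal zone and medulla, had 5.15 FPKM in E1+/-E2KO, 0.302 in E2KO, 0.366 in E1KO and 0.736 in control. Ccl19 and the Ccl21 genes, chemokines of lymph node stroma, were listed at 0 in all 12 columns. Such values cannot tell the groups apart and were not read as absence of lymph node tissue. Madcam1 and Pdpn, of lymph node vessels and stroma, differed by -0.27 and -0.56. Removal of the lymph node is described for the virgin glands collected before prolactin and not for the pregnant ones, and its part in these values was not tested. Lymphocyte markers also varied among the virgin groups, and not in the order of genotype. The median of the same T and NK cell markers was 12.6 FPKM in E2KO and 0.838 in control before prolactin, and 0.779 in E2KO and 8.07 in control after it. The median of the B cell markers was 11.7 FPKM in E2KO and 0.473 in control before prolactin, and 0.159 in E2KO and 8.84 in control after it. These differences between single pooled columns are larger than those at p13. The summed T and NK cell markers made up 0.0462% of FPKM in E1+/-E2KO, 0.0204% in E2KO, 0.0281% in E1KO and 0.0167% in control, where Thy1, which stromal cells also express, is the most abundant member. The summed B cell markers made up 0.0139% in E1+/-E2KO, 0.00482% in E2KO, 0.00698% in E1KO and 0.00832% in control, and in the control sum Ebf1 is the largest term. Since lymphocytes themselves express interferon-induced genes, these values stand beside the interferon result, and their part in it was not tested. The median of the 36 interferon genes was 23.6 FPKM in E1+/-E2KO, 20.9 in E2KO, 13.8 in E1KO and 9.56 in control, and the median of the kept T and NK cell markers was 4.63 FPKM in E1+/-E2KO, 1.37 in E2KO, 1.05 in E1KO and 0.934 in control. Genes of both lists were kept by their values in E1+/-E2KO and control alone, so the E2KO and E1KO medians are a description.

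Other leukocytes were closer to control. Of 22 kept macrophage markers only Marco was past the threshold, and the median was 0.13. Csf1r, the receptor that macrophages depend on, had 37.7 FPKM in E1+/-E2KO, 23.5 in E2KO, 42.5 in E1KO and 48.5 in control, and Emr1 (F4/80) had 21.2 FPKM in E1+/-E2KO, 8.10 in E2KO, 16.1 in E1KO and 19.2 in control. Both were lowest in E2KO. Dendritic cell markers had 2 higher genes of 9 kept, Ccr7 and Bst2, which the lists above also hold. Mast cell markers held no call among 8 kept (median -0.42), and of 16 kept neutrophil and acute phase genes Saa1 and Pglyrp1 were higher.

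**Figure D3:**
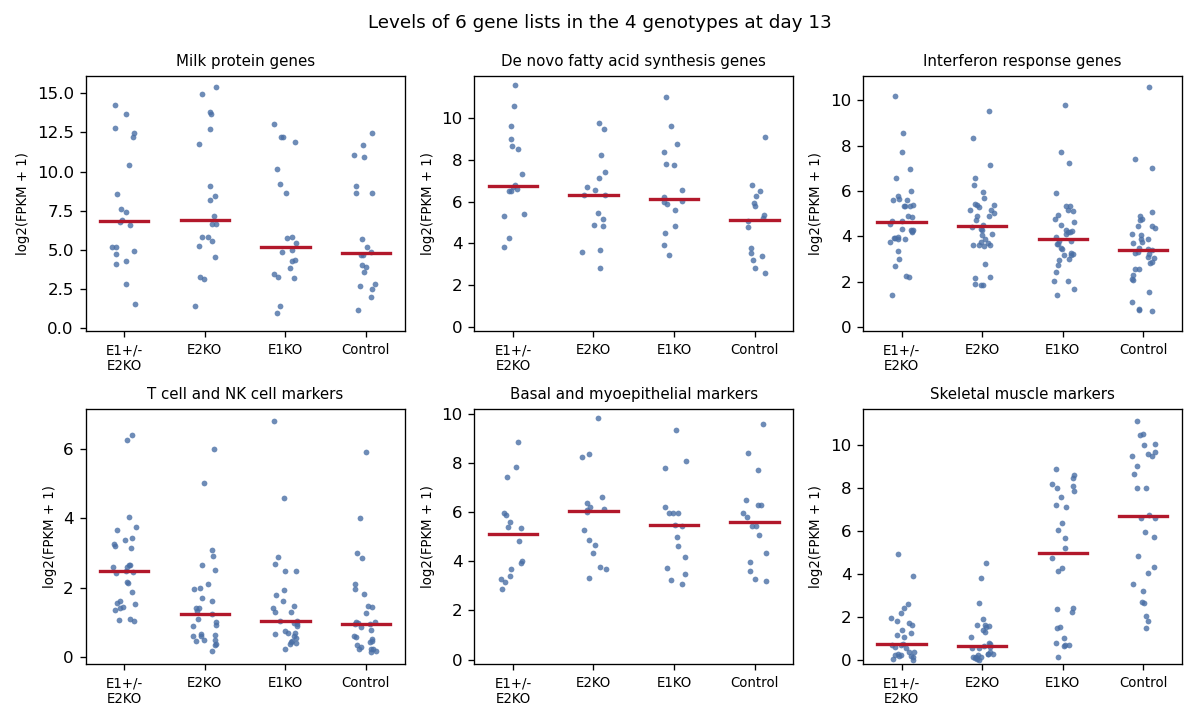
Log2(FPKM + 1) of the kept genes of 6 lists in the 4 p13 groups, with a point per gene and the median as a red bar. Medians of milk protein genes are 115 FPKM in E1+/-E2KO, 121 in E2KO, 36.2 in E1KO and 26.8 in control, and those of T and NK cell markers are 4.63, 1.37, 1.05 and 0.934 FPKM in these groups.

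Skeletal muscle genes were far lower in E1+/-E2KO, and in the ranking of protein-coding genes used here only Hba-a1, a globin given below as uncertain, came before Ckm. Of 31 markers 28 were kept, and all 28 were lower, with a median of -5.77. Of the 15 protein-coding genes with the most negative differences, 13 are on this list. Ckm, muscle creatine kinase, had 2.07 FPKM in E1+/-E2KO, 1.45 in E2KO, 383 in E1KO and 1404 in control. Acta1, skeletal actin, had 5.13 FPKM in E1+/-E2KO, 5.36 in E2KO, 471 in E1KO and 2211 in control, and Myh4, the myosin of fast fibres, had 1.40 FPKM in E1+/-E2KO, 0.701 in E2KO, 147 in E1KO and 715 in control. The genes of slow fibres, such as Myh7 and Tnni1, had 1.79 and 2.51 FPKM in control. The median muscle marker was at 0.678 FPKM in E1+/-E2KO, 0.557 in E2KO, 30.9 in E1KO and 102 in control.

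They summed to 0.0116% of all FPKM in E1+/-E2KO, 0.00828% in E2KO, 0.472% in E1KO and 1.81% in control. At p13 control thus stood apart from both Ezh2-deleted groups, and E1KO lay between. The same markers made up 0.0220% in untreated virgin control glands and 0.00844% in p18 control glands. Over all 12 columns the share was highest in p13 control and next in p13 E1KO. Skeletal muscle underlies the gland and is not part of it, and its regulators Pax7, Myog and Myod1 were under 1 FPKM in all 4 p13 groups. Mybpc2, a fast fibre gene outside the list, had 0.416 FPKM in E1+/-E2KO, 0.586 in E2KO, 27.2 in E1KO and 141 in control. With 1 pooled value the number of control libraries that carried muscle RNA cannot be read. When FPKM were rescaled to a common sum without milk, muscle, erythroid and adipocyte genes, the p13 counts were 477 higher and 427 lower.

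The predicted genes Gm5506 and Gm6484 were among the 15 protein-coding genes with the highest differences, at 3.71 and 2.94, and their values are uncertain because such models can be near-identical copies of other genes.

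Other lower genes came from several tissues. Sfrp5, a Wnt inhibitor of adipose tissue, had 8.06 FPKM in E1+/-E2KO, 6.77 in E2KO, 19.7 in E1KO and 152 in control, and was named after its values were seen. It was low in E1+/-E2KO and E2KO, intermediate in E1KO and high in control, the order of the muscle genes. Erythroid markers had 5 lower and 1 higher of 9 kept. Alas2, the first enzyme of haem synthesis in red cells, had 39.0 FPKM in E1+/-E2KO, 19.2 in E2KO, 51.9 in E1KO and 99.99 in control. Hba-a1 and Hba-a2 are near-identical copies and their values are uncertain, since Hba-a1 had 0.340 FPKM in E1+/-E2KO, 252 in E2KO, 0 in E1KO and 1320.0 in control, and Hba-a2 174 FPKM in E1+/-E2KO, 0.0720 in E2KO, 0 in E1KO and 0.0620 in control.

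Most stromal genes lay below control. Of 19 kept endothelial markers only Vwf was past the threshold (-1.35), 17 lay below control, and the median was -0.47. Pecam1 had 50.4 FPKM in E1+/-E2KO, 57.4 in E2KO, 50.5 in E1KO and 76.3 in control, and Cdh5 had 41.8 FPKM in E1+/-E2KO, 51.5 in E2KO, 41.0 in E1KO and 62.7 in control. In the FPKM as deposited all 22 kept collagen genes lay below control, 1 past the threshold, with a median of -0.47. Fibroblast markers had 4 lower genes of 17 kept, Fbln2, Fbln1, Col14a1 and Fn1, while Pdgfra and Dcn, which define the cells, differed by -0.11 and 0.09. The fibroblast median of -0.10 turns to 0.02 when FPKM are rescaled to a common sum without milk proteins.

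The same genotypes at p18, in libraries that share no sample with p13, were compared in the same way. There 12408 genes were kept, of which 175 (1.41%) were higher and 221 (1.78%) lower. That split depends on the scaling. It was 103 and 403 with a common sum, which shifts the median of all genes to -0.19, 137 and 266 with a common upper quartile, 88 and 598 when milk proteins were left out of that sum, which shifts the median to -0.31, and 88 and 586 when muscle, erythroid and adipocyte genes were left out of the sum as well, each as higher and lower. Under these 4 rescalings the lower genes outnumbered the higher ones, whereas among protein-coding genes alone, in the FPKM as deposited, 126 were higher and 103 lower.

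Among 11778 protein-coding genes kept at both stages, 40 were higher at both. They are 14.9% of the 268 higher at p13 and 32.3% of the 124 higher at p18. Over all 12293 genes kept at both stages, 54 were higher at both and 56 were higher at p13 and lower at p18. Likewise 18 were lower at both and 18 were lower at p13 and higher at p18. Among the 11778 protein-coding genes, 3 were higher at p13 and lower at p18, and 10 were lower at p13 and higher at p18. Of the 40 protein-coding genes higher at both, 15 belong to the lymphocyte lists. They include Cd79a, with 8.70 FPKM in E1+/-E2KO and 0.469 in control at p18, Cd3g, with 10.0 FPKM in E1+/-E2KO and 3.05 in control, and Igj, with 113 FPKM in E1+/-E2KO and 22.1 in control. Among the 12408 genes kept at p18, the B cell, plasma cell and T and NK cell lists held 12, 10 and 25. The lists were chosen with earlier results of these data known, so the 15 are a description. As a list, T and NK cell markers had 9 higher and 0 lower genes of 25 kept at p18 (median 0.65, and 3 higher with a median of 0.40 at a common sum without milk proteins). B cell markers had 4 higher and 0 lower of 12 kept (median 0.92). At p18 too, markers under 1 FPKM in control were kept only where they reached 1 FPKM in E1+/-E2KO. These counts and medians are thus a description. Marco had 5.09 FPKM in E1+/-E2KO and 0.0888 in control, and Cxcl13 7.05 FPKM in E1+/-E2KO and 2.51 in control.

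Lower at both stages were 13 protein-coding genes, 5.70% of the 228 lower at p13 and 13.1% of the 99 lower at p18. Of these 13 genes 9 are muscle markers, a list with 14 genes among the 12408 kept at p18. Muscle was scarce in both p18 groups, with Ckm at 0.715 FPKM in E1+/-E2KO and 6.13 in control. Per1, a clock gene, was lower at both, with differences of -1.11 and -1.13, as were Inmt and Trim12a.

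Milk protein, lipid synthesis and interferon genes were not higher as lists at p18. At p18 the 22 kept milk protein genes had 2 higher and 2 lower, with a median of -0.06, against 1 higher and 5 lower with a median of -0.43 when the sum without milk proteins was made common. Csn2 had 144169 FPKM in E1+/-E2KO and 145905 in control. Lalba had 3153 FPKM in E1+/-E2KO and 2785 in control, far above its p13 level in either genotype. The 16 fatty acid synthesis genes held no call at p18 as deposited (median -0.02), and 0 higher and 3 lower at a common sum without milk proteins (median -0.37). Fasn had 182 FPKM in E1+/-E2KO and 315 in control. Interferon genes had 0 higher and 3 lower of 36 (median -0.36, and -0.72 to -0.43 under the 4 rescalings), and Isg15 had 129 FPKM in E1+/-E2KO and 137 in control. Control glands at p18 thus had Isg15 at 137 FPKM, above all 4 groups at p13. Basal markers had 0 higher and 1 lower of 16 at p18 and a median of -0.15, and Krt14 had 46.3 FPKM in E1+/-E2KO and 51.2 in control. At a common sum without milk proteins the basal median was -0.51 with 3 lower at p18, and -0.43 at p13. Adipocyte markers stood the other way from p13, with 4 higher and 0 lower of 22 (median 0.58, and 0.23 at a common sum without milk proteins).

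**Figure D4:**
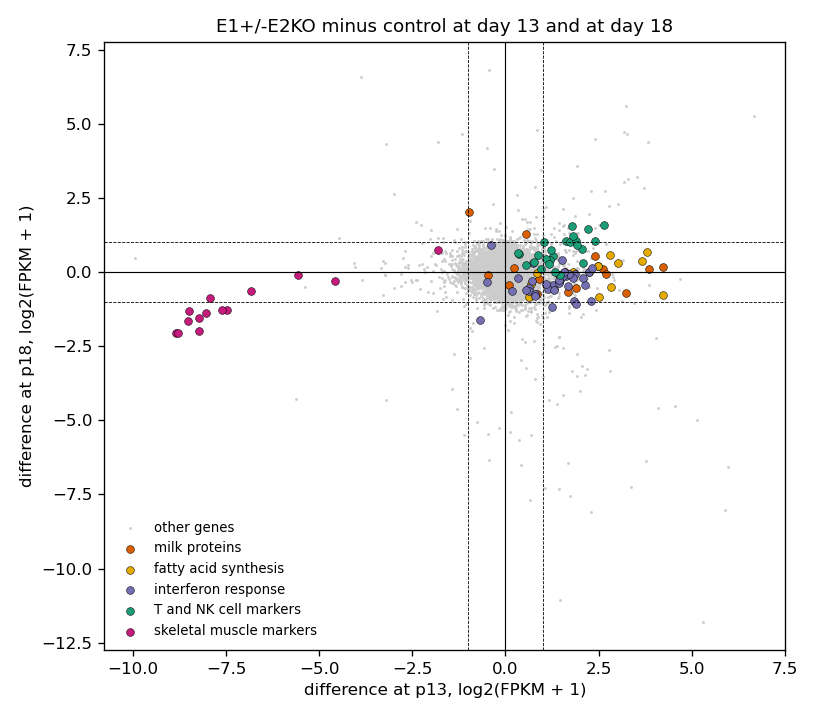
Difference between E1+/-E2KO and control on log2(FPKM + 1) at p13 (horizontal) and at p18 (vertical) for genes kept at both stages; dashed lines mark 1 and -1 and colours mark 5 lists. T and NK cell markers lie right of 0 at p13 and mostly above 0 at p18, muscle markers other than Mb lie to the lower left, and fatty acid synthesis genes lie right of 0 at p13 and within 1 of it at p18.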

How the data were processed

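Poly(A) RNA of whole mouse mammary glands was sequenced in 31 libraries. The authors deposited 1 table of FPKM with 1 column for each of 12 groups, and the way that 3 libraries were pooled into a value is not stated in the labels. The submitters' processing notes name TopHat, Cuffdiff, Cufflinks, Bowtie, BWA, HOMER, CASAVA, FastQC and Trim Galore and the build mm9, with no role or version. All 12 columns were matched to groups by name, and 0 were left without one. Depth is unknown: over 1378 genes under 0.05 FPKM in both p13 columns, the most common ratio of values held 5.22% of genes, so single reads could not be recovered.

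Genes with at least 1 FPKM in either group were kept, and differences were taken on log2(FPKM + 1), E1+/-E2KO minus control, with 1 as the threshold. The limma fit planned for replicates could not be fitted to pooled values, so no test was made. Genes were named by a fixed rule, which took Ezh1 and Ezh2, the 15 largest differences in each direction among protein-coding genes above 0 in both groups and reaching 5 FPKM in 1 of them, and in each list the 2 to 6 largest differences and the defining members. Members and lists were chosen with earlier results of these data known. A few genes that this rule or a count would name are not reported here. A further 10 settings were tried. Biotypes and promoters came from RefSeq by symbol, with promoters of 300 bases. Scripts were tested on simulated data, in Python 3.11.15 with pandas 2.3.3, NumPy 2.4.6 and matplotlib 3.10.9.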

Additional observations from a re-analysis of the deposited data

Results flagged for a closer look

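Among protein-coding genes kept at both stages, 3 were higher at p13 and lower at p18, and 10 were lower at p13 and higher at p18. Over all genes kept at both stages these counts were 56 and 18. Of the protein-coding ones, the 4 that belong to the gene lists are given here. None of these differences between stages was tested, since each stage gives 1 pooled value per group.

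Lep, for leptin, differed by -1.82 at p13 and 1.16 at p18, with 127 FPKM in E1+/-E2KO and 452 in control at p13 and 49.6 FPKM in E1+/-E2KO and 21.7 in control at p18. C6, a component of the terminal complement pathway, differed by -1.08 and 1.02. Both genes had their highest value among the 4 p13 groups in control.

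Stat2, which carries type I interferon signals, differed by 1.25 at p13 and -1.17 at p18, and had 6.40 FPKM in E1+/-E2KO and 15.7 in control at p18. Slc34a2, the phosphate carrier of alveolar cells, differed by 1.71 at p13 and -1.15 at p18, where it had 54.4 FPKM in E1+/-E2KO and 122 in control. In both, E1+/-E2KO lay above control at p13 and below it at p18.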

How the results depend on the processing

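No paired analysis was possible because the table gives 1 pooled value per group, and for the same reason no library could be left out. Counts moved with the pseudocount and the threshold. At p13, 446 higher and 456 lower genes became 677 and 614 with a pseudocount of 0.1, and 196 and 240 with one of 5. They became 128 and 166 at a threshold of 2, and 291 and 411 among protein-coding genes. At p18, 175 higher and 221 lower genes became 290 and 450, 85 and 97, and 42 and 75 under the same pseudocounts and threshold, and 126 and 103 when other biotypes were left out. Rescaling at p18 gave 103 and 403 with a common sum, 88 and 598 without milk proteins, and 88 and 586 without muscle, erythroid and adipocyte genes as well. Thresholds and restriction to protein-coding genes act by construction, and for the rest the cause was not tested. Of 270 list medians under the 10 settings 241 kept their side of the threshold and direction, 14 fell under it, and 15 that lay under it went to the other side of 0 or, for Hox genes without a filter, to 0. Of these the brown fat median moved most, from 0.40 to -0.41 with a filter of 5 FPKM. Of 530 values of named genes 515 kept their side and 15 fell under the threshold. None of the called medians or named genes changed direction. Unknown depth and a lack of replicates limit every value, most of all those near 1 FPKM.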

Other observations

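Several groups of genes outside the comparisons above are given as values. Of all genes kept at p13, 3.27% were higher and 3.35% lower. The counts of calls in the lists here are too small to be set apart from these shares. Genes that glucocorticoids induce had 0 higher and 3 lower of 13 kept (median -0.51). Pdk4, which restrains glucose oxidation, had 29.4 FPKM in E1+/-E2KO, 51.1 in E2KO, 32.8 in E1KO and 94.5 in control. Tsc22d3, a direct target of the glucocorticoid receptor, had 40.1 FPKM in E1+/-E2KO, 40.8 in E2KO, 40.2 in E1KO and 89.0 in control. The metallothioneins Mt1 and Mt2 lay above control, at 0.59 and 0.88. In Tsc22d3 the 3 mutant groups lay together below control. Among 18 clock genes 3 were lower and 0 higher. Per1 had 10.6 FPKM in E1+/-E2KO, 10.2 in E2KO, 12.4 in E1KO and 24.1 in control, and Per2 had 1.35 FPKM in E1+/-E2KO, 1.42 in E2KO, 2.33 in E1KO and 3.74 in control, whereas Arntl, which works against them in the cycle, differed by 0.85.

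Imprinted growth genes had 1 higher and 2 lower of 14 kept. Mest had 56.9 FPKM in E1+/-E2KO, 26.5 in E2KO, 63.6 in E1KO and 387 in control. Meg3, a maternally expressed RNA, had 5.42 FPKM in E1+/-E2KO, 2.28 in E2KO, 7.60 in E1KO and 1.90 in control. Mest and Nnat are also on the adipocyte list. Igfbp3, a carrier of IGF1, had 26.2 FPKM in E1+/-E2KO, 41.0 in E2KO, 48.3 in E1KO and 92.4 in control and was the 1 gene past the threshold among 12 kept of the IGF axis. The Wnt list had 0 higher and 1 lower of 20 kept, Sfrp5, with a median of -0.52. Complement genes had 3 lower and 0 higher of 16 kept. Serping1, the inhibitor of the first component, had 139 FPKM in E1+/-E2KO, 66.4 in E2KO, 173 in E1KO and 288 in control, while Cfd (adipsin) differed by 0.50.

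Markers of other tissues varied among the p13 groups. Ucp1, which defines brown fat, had 1.88 FPKM in E1+/-E2KO, 65.5 in E2KO, 0.340 in E1KO and 0.499 in control, so it stood out in E2KO. Cidea, a lipid droplet protein of brown fat and of lactating epithelium, had 18.7 FPKM in E1+/-E2KO, 50.3 in E2KO, 9.75 in E1KO and 3.28 in control. Of 12 liver markers 5 were kept, with 3 higher and 0 lower. Apoa2, an apolipoprotein, had 6.62 FPKM in E1+/-E2KO, 1.23 in E2KO, 143 in E1KO and 1.26 in control, and E1KO was highest for 4 of the 5. Kept small RNAs numbered 246, of which 120 were higher and 35 lower. The libraries were made from poly(A) RNA, and mature small RNAs carry no poly(A) tail, so these values were not read further.

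Among 16 kept BCL2 family genes 2 were higher and 0 lower. Bbc3 (PUMA) and Bmf, which promote cell death, differed by 1.04 and 1.00, and Bcl2 itself by -0.59. Immediate early genes had 1 higher and 0 lower of 23 kept. Egr1 had 35.1 FPKM in E1+/-E2KO, 37.8 in E2KO, 49.2 in E1KO and 15.4 in control, with control lowest.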
